A study of Mus musculus with 7 samples.

Results

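The circadian clock genes of the mouse retina were examined for lactylation of histone H3 at lysine 18 (H3K18La), a mark in which a lactate-derived group sits on the histone tail. The set comprised 10 genes: Clock, Arntl (also written Bmal1), Per1, Per2, Per3, Cry1, Cry2, Nr1d1, Nr1d2 and Dbp. Their members were all peaks whose assigned gene symbol was one of these names, which gave 57 of the 108253 peaks in the table. Each gene was represented by the promoter peak nearest its transcription start site, and all 10 genes had one, among 9956 protein-coding genes with a promoter peak. Because Per1 has 3 promoter peaks over annotated starts, its widest stands for the gene and the other two are given beside it.

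CUT&Tag was the assay: the mark is bound by its antibody, which brings an enzyme to the chromatin so that the DNA there can be sequenced. Retinas of wild-type C57BL/6J mice were taken at postnatal days 4 (P4), 10 (P10) and 28 (P28), without any treatment, and were dissociated into cells. P4 and P10 had 2 libraries each and P28 had 3, of which replicate 1 formed batch 2 by itself while all others were batch 1. The study counts more replicates in its peak selection than the libraries of P4 and P10 analysed here, so the peak set may rest in part on libraries not among these 7. The study's methods describe a light and dark cycle. Their section on retinal explants gives a single time of dissection after lights on and states it for all experiments. No rhythm was measured. Whole retina mixes all retinal cell types, and a change in the share of cells that carry the mark cannot be told apart from a change in the signal per cell.

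The clock runs as a feedback loop. The proteins CLOCK and BMAL1 bind E-box sequences and switch on the Per and Cry genes, whose products return to the nucleus and block CLOCK and BMAL1. In a second loop the nuclear receptors REV-ERBα (Nr1d1) and REV-ERBβ (Nr1d2) repress Arntl through response elements that ROR receptors use to activate it. DBP, whose own gene is under E-box control, activates further genes through D-box sequences. The retina holds its own clock, which is known for its influence on dopamine and melatonin release, photoreceptor coupling and light responses.

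The recognition sequences of these factors were searched in the 1000 bases around the centre of each promoter peak, on both strands, in the GRCm38 assembly that the files use. The D-box (TTATGTAA or TTACGTAA) was in 4 of the 10 clock windows, those of Per1, Per2, Per3 and Nr1d2, against 2.2% of the 9956 promoter windows. The E-box CACGTG was in 3 of 10 (Per1, Cry1 and Nr1d2) against 20.93%, and its variant CACGTT in 3 of 10 (Per2, Cry1 and Cry2) against 17.29%. The core site of the ROR and REV-ERB element (TAGGTCA or TGGGTCA) was in 3 of 10 (Arntl, Nr1d1 and Dbp) against 17.4%. The cyclic AMP element TGACGTCA was in none of the 10 against 4.349%, and its shorter form TGACG, which every full element contains, was in 7 of 10 against 56.64%. These matches are descriptions of letters in a window, and no factor's binding was measured. The D-box stretches of these 4 genes are shown because this was the motif whose share among the clock promoters stood farthest from that of all promoters, with each motif in capitals. They lie at chr11:69094452-69094539 (plus strand, Per1), chr1:91459402-91459489 and chr1:91459055-91459142 (minus strand, Per2 before its start and in its first intron), chr4:151044796-151044890 (minus strand, Per3) and chr14:18238505-18238698 (minus strand, Nr1d2, in an intron, with E-boxes around the D-box).
Per1 D-box: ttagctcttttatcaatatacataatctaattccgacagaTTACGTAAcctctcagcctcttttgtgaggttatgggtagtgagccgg
Per2 upstream D-box: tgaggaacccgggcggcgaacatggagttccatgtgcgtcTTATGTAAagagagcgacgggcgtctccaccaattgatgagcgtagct
Per2 intron D-box: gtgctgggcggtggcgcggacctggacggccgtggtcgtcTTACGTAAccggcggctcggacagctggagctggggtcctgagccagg
Per3 D-box pair: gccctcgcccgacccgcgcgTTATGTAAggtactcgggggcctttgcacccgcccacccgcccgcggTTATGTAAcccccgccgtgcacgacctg
Nr1d2 E-box and D-box cluster: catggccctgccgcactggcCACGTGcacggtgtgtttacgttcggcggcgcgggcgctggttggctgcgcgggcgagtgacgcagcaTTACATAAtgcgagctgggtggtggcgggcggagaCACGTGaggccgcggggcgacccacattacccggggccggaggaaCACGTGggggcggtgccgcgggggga

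E-boxes of the repressor genes and of Nr1d1 are shown next, since these are the sites through which CLOCK and BMAL1 are known to act. The Per1 stretch (chr11:69094863-69095092, plus strand) and the Cry1 stretch (chr10:85185089-85185153, minus strand) lie just outside the annotated gene. The Nr1d1 stretch (chr11:98773839-98773899, minus strand) lies in an intron under the outer part of its promoter peak. The capitals mark CACGTG, or AACGTG, which is CACGTT read from the other strand.
Per1 E-box pair: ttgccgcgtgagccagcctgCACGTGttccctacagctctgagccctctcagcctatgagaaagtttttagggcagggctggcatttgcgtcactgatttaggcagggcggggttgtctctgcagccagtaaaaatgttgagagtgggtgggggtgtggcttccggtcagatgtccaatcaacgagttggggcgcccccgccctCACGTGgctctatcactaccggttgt
Cry1 E-box and variant: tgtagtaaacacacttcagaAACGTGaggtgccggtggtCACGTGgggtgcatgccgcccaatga
Nr1d1 E-box pair: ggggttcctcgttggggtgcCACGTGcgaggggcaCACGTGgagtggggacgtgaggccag

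In the narrower RefSeq windows of 250 bases before to 50 after a start (GRCm38.p6), 13 windows matched 9 of the 10 genes. The E-box was in 2 of the 13, a window each of Cry1 and Per1, against 7.149% of 32817 windows. Its variant CACGTT was in those of Cry1, Cry2 and Nr1d1, 3 of the 13 windows, against 4.687%. The D-box was found there in Per3 alone, with both copies shown above, against 1.054% of all windows. The ROR core site was in 1 of the 2 Arntl windows, against 6.46%.

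The libraries differed in depth, from 199970 to 8274373 reads in peaks, and the 4 libraries of P4 and P10 were all shallower than those of P28. Reads in peaks relative to the normalized library size also moved with age, at 16.3 and 17.6% at P4, 36.1 and 52.1% at P10, and 42.4, 50.9 and 57.1% at P28. Signal was deposited as RPKM, the reads per kilobase of a peak relative to the normalized size of its library, so levels can be compared between peaks per length. The number of reads behind each value was recovered from the deposited values. The 10 clock promoter peaks held between 8 reads (Per3) and 63 reads (Nr1d2) summed over both P4 libraries, and each had more than 3 reads, the most that a count of 0 can hide, in at least 1 library of every age. In the check of the tissue, promoter peaks of all 5 rod photoreceptor markers were present. Their summed signal was 14.7 and 15.9 RPKM at P4, 112 and 115 at P10, and 85.2, 120 and 130 at P28. For other cells the markers with a promoter peak were 0 of 4 for microglia, 1 of 3 for endothelium, 2 of 4 for pigment epithelium and 2 of 3 for lens. Rgr of the pigment epithelium reached the highest level among them, with 7.71 and 1.69 RPKM at P4, 2.55 and 6.69 at P10, and 5.38, 11.7 and 14.4 at P28, and Cryaa of the lens reached 11.5 in P10 replicate 2. Their part in the clock result was not tested. The summed pigment epithelium signal ran from 2.55 to 18.7 RPKM, the endothelium signal from 1.41 to 7.44 and the lens signal from 1.65 to 13.4. Cx3cr1, P2ry12, Csf1r and Aif1 of microglia, Pecam1 and Tek of endothelium and Crygs of lens had no promoter peak. Rod marker signal was higher in every P10 and P28 library than in either P4 library, and its part in the clock result was not tested.

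Promoter H3K18La was higher at P28 than at P4 at all 10 clock genes, by 3.48 to 11.0 times in mean RPKM. Per1 and Dbp rose most, and Per2 and Cry2 least, on the log2(RPKM + 1) scale used for testing. By limma with Benjamini-Hochberg adjustment over all peaks at 0.01, 10 of 10 were called higher, against 33.4% of all promoter peaks. Their median change was 2.04, against 1.35 over all promoter peaks, and all 10 lay above that median. With 0.1 in place of 1 added to RPKM the medians were 2.27 and 1.90. Of the 10 genes, 9 then lay above the promoter median and 8 were called, against 22.7% of all promoter peaks. Every P28 library exceeded every P4 library at all 10 genes, which held for 79.8% of promoter peaks. The median clock promoter stood at the 81.3 and 74.1 percentiles of all promoter peaks at P4, and no set matched for signal was compared. Across the 3 ages, limma's moderated F-test called 9 of 10 against 29.3%, all but Per2 (adjusted p = 0.0117). The number called depended on single libraries. Where a P4 or P10 library was left out, the lone sample of that age was assumed to vary like the other ages. It was 5 without P4 replicate 1 (9.33% of all promoter peaks), 4 without P4 replicate 2 (10.7%) and 6 without P28 replicate 1 (17.5%), the batch 2 library, so that this is also the comparison within batch 1. It was 6 without P28 replicate 2 (13.0%) and 5 without P28 replicate 3 (12.8%), while 4 genes (Per1, Nr1d1, Nr1d2 and Dbp) were called whichever library was left out.

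**Figure D1:**
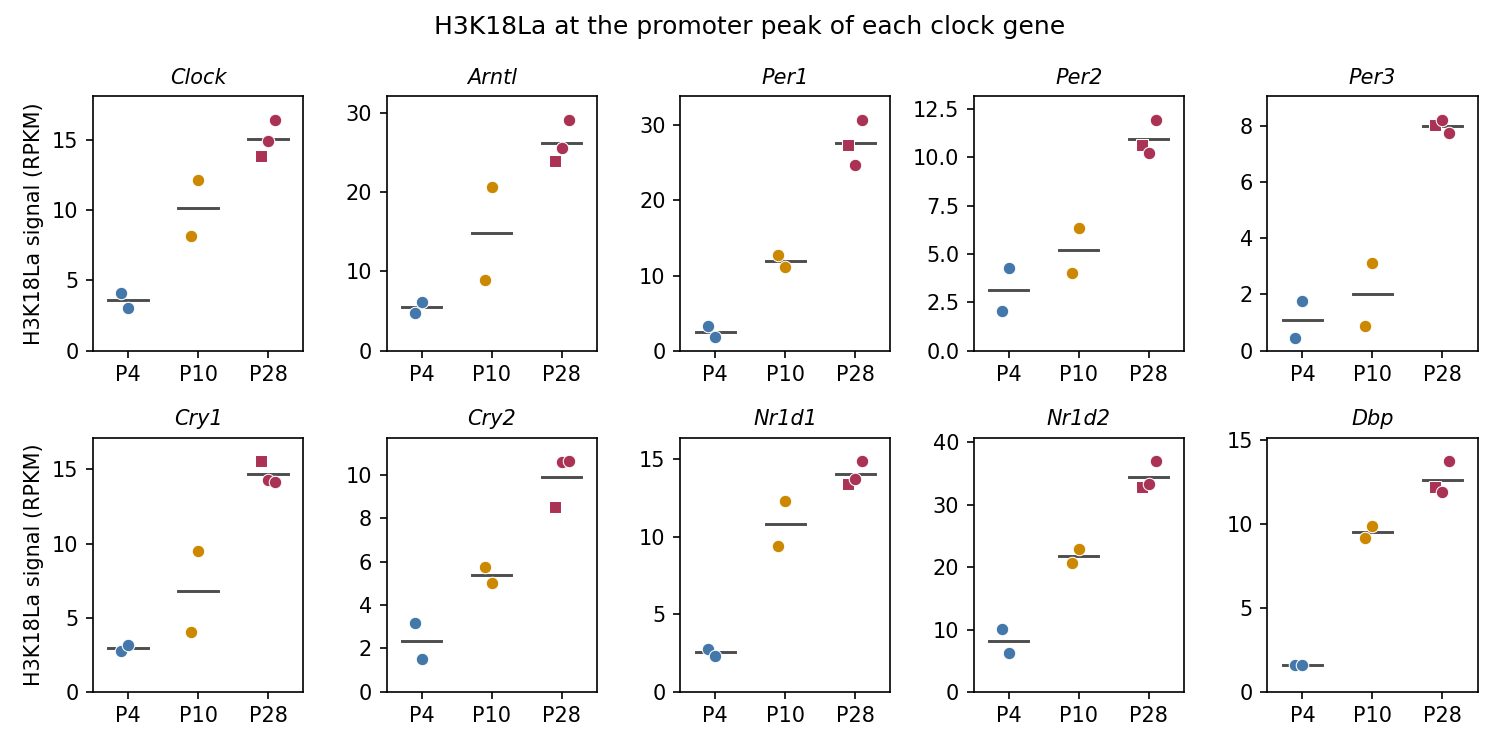
H3K18La signal in RPKM (y axis, from 0) at the promoter peak of each of the 10 clock genes by age (x axis). Each point is 1 library, the square is the batch 2 library and the line is the mean of the age. At every gene the 3 P28 libraries lie above both P4 and both P10 libraries.

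Among the activators, Clock encodes the partner of BMAL1 and carried its promoter peak at chr5:76303749-76305302, over the first exon and start. The peak also covers exons and a start of Gm7467, annotated on the opposite strand. Its signal was 4.09 and 3.07 RPKM at P4, 8.13 and 12.2 at P10, and 13.8, 14.9 and 16.4 at P28. The 3 ages did not overlap, and the P28 mean was 4.21 times that of P4. The change from P4 to P28 was 1.82 (SE 0.29, limma adjusted p = 0.00125) and that from P4 to P10 was 1.27 (limma adjusted p = 0.0129), which missed the threshold.

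Arntl, which encodes BMAL1 and is the gene whose loss stops the clock, had its promoter peak at chr7:113206629-113208647. Signal was 4.73 and 6.21 RPKM at P4, 8.94 and 20.7 at P10, and 23.9, 25.6 and 29.2 at P28. The ages did not overlap, but the P10 libraries differed from each other by more than the P4 mean. The change from P4 to P28 was 2.08 (SE 0.34, limma adjusted p = 0.00141), and from P4 to P10 it was 1.19 (limma adjusted p = 0.033). Arntl also had a promoter peak over a downstream start (chr7:113238248-113239908), where signal was 1.91 and 1.44 RPKM at P4, 6.52 and 15.7 at P10, and 13.9, 14.9 and 16.2 at P28. That peak was called both at P10 (change 2.07, limma adjusted p = 0.00417) and at P28 (change 2.58, limma adjusted p = 0.000665) against P4.

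Of the repressors, Per1, a light- and CLOCK-induced gene, changed most. Its upstream promoter peak (chr11:69094410-69095397) lies over the start of transcript ENSMUST00000101004 and holds the E-box pair and a D-box shown above. Signal there was 3.22 and 1.81 RPKM at P4, 12.8 and 11.2 at P10, and 27.4, 24.8 and 30.8 at P28. The ages did not overlap. The changes were 1.91 from P4 to P10 (SE 0.31, limma adjusted p = 0.00213), 1.14 from P10 to P28 (SE 0.28, limma adjusted p = 0.0314) and 3.05 from P4 to P28 (SE 0.28, limma adjusted p = 0.000142), a rise of 11.0 times in mean RPKM. The peak over the start of ENSMUST00000021271 (chr11:69098480-69099316) had 2.17 and 1.43 RPKM at P4, 8.63 and 17.9 at P10, and 16.0, 22.3 and 24.6 at P28. There P10 replicate 2 exceeded P28 replicate 1. Its change from P4 to P28 was 2.96 (SE 0.36, limma adjusted p = 0.000335), and the step from P10 to P28 was 0.68 (limma adjusted p = 0.215). The third promoter peak, chr11:69099812-69100401, had 0 and 10.7 RPKM in the P10 libraries and was not called (change 3.09 from P4 to P28, SE 0.79, limma adjusted p = 0.0119). The peak in the 3' UTR of Per1 stayed between 0 and 4.15 RPKM in all libraries.

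Per2, whose protein carries much of the repressive function of the loop, had a single peak, over its start (chr1:91458166-91460407). Signal was 2.03 and 4.26 RPKM at P4, 4.03 and 6.33 at P10, and 10.6, 10.2 and 11.9 at P28. The P4 and P10 libraries overlapped, and the P28 libraries lay above both. This was the smallest change of the 10, at 1.58 from P4 to P28 (SE 0.35, limma adjusted p = 0.00596), and at P10 the change from P4 was 0.61 (limma adjusted p = 0.257).

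Per3, a paralogue with a lesser role in the loop, also had a single peak (chr4:151043361-151045388), which lies at its start within the annotated span of Camta1 on top of the D-box pair. Signal was 0.448 and 1.77 RPKM at P4, 0.890 and 3.11 at P10, and 8.02, 8.21 and 7.75 at P28. The P4 and P10 libraries overlapped. The larger step in value was from P10 to P28, with a change of 1.69 (SE 0.46, limma adjusted p = 0.039) that missed the threshold of 0.01. From P4 to P28 the change was 2.17 (SE 0.46, limma adjusted p = 0.00469), a rise of 7.22 times in mean RPKM. Only 8 reads at P4 and 9 at P10 stand behind these levels.

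Cry1, the stronger repressor of the cryptochrome pair, had its promoter peak at chr10:85184405-85185735. Signal was 2.73 and 3.14 RPKM at P4, 4.07 and 9.48 at P10, and 15.6, 14.3 and 14.1 at P28, with no overlap between ages. The change from P4 to P28 was 2.00 (SE 0.35, limma adjusted p = 0.00183) and from P10 to P28 it was 1.10 (limma adjusted p = 0.0613). Cry2, its paralogue, had its promoter peak at chr2:92433491-92435065. Signal was 3.17 and 1.52 RPKM at P4, 5.73 and 5.01 at P10, and 8.50, 10.6 and 10.6 at P28. The ages did not overlap here either, and the change from P4 to P28 was 1.74 (SE 0.34, limma adjusted p = 0.00301).

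In the second loop, Nr1d1, the gene of REV-ERBα, had its promoter peak at chr11:98773557-98775866. Signal was 2.75 and 2.32 RPKM at P4, 9.38 and 12.3 at P10, and 13.4, 13.7 and 14.9 at P28. Most of the rise was present at P10, where the change from P4 was 1.73 (SE 0.30, limma adjusted p = 0.00292), and P28 exceeded P10 by 0.35 (limma adjusted p = 0.401). The full change from P4 to P28 was 2.09 (SE 0.28, limma adjusted p = 0.000512). Nr1d2, the gene of REV-ERBβ, had the strongest promoter signal of the 10 in 6 of the 7 libraries (chr14:18237925-18239849). It measured 10.1 and 6.20 RPKM at P4, 20.6 and 22.9 at P10, and 32.8, 33.4 and 37.1 at P28. Its change was 1.34 by P10 (SE 0.29, limma adjusted p = 0.00673) and 1.98 by P28 (SE 0.27, limma adjusted p = 0.000525).

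Dbp, the D-box activator and the output gene of the set, had 2 promoter peaks. The one that stands for the gene (chr7:45703882-45706446) also covers exons of its neighbour Car11. Its signal was 1.59 and 1.63 RPKM at P4, 9.15 and 9.83 at P10, and 12.2, 11.9 and 13.7 at P28. The 2 libraries of P4 were nearly equal, as were those of P10, and the ages did not overlap. The change was 2.01 by P10 (SE 0.31, limma adjusted p = 0.00167) and 2.38 by P28 (SE 0.28, limma adjusted p = 0.000306), and the step from P10 to P28 was 0.37 (limma adjusted p = 0.378). The inner Dbp peak (chr7:45707374-45708785) had 16.6 RPKM in P10 replicate 1 and 3.35 in P10 replicate 2, and lay between 6.87 and 7.53 at P28. It was not called from P4 to P28 (change 1.96, limma adjusted p = 0.0137). Sequence under both peaks is shown because each holds a group of clock motifs: a pair of ROR core sites at chr7:45704834-45704925 and a group of E-boxes and a variant at chr7:45707692-45707850, both on the plus strand, with the motifs in capitals.
Dbp ROR core site pair: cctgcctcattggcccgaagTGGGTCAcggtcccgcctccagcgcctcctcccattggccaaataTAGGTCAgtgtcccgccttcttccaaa
Dbp E-box group: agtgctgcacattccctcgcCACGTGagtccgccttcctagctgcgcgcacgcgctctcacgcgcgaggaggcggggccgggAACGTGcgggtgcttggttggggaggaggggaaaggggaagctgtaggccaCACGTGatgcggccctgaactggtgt

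By P10, 4 of the 10 promoter peaks were called higher than at P4 (Per1, Nr1d1, Nr1d2 and Dbp), against 11.6% of all promoter peaks. All 10 changes were positive, from 0.48 at Per3 to 2.01 at Dbp, with a median of 1.23 against 0.54 over all promoter peaks. With the mean over all promoter peaks of a gene in place of a single peak, 4 were again called, with Arntl in place of Per1. Every P10 library exceeded every P4 library at 8 of 10 genes, all but Per2 and Per3, against 46.1% of promoter peaks. Between P10 and P28 limma called 0 of 10 at 0.01, as it did for nearly all peaks (0.00185% called in either direction). At an unadjusted p under 0.05 there were 7 of 10, against 39.5% of promoter peaks, and at an adjusted p under 0.05 there were 2, Per1 and Per3, against 15.2% of promoter peaks. With voom weights on the recovered reads 1 was called, Per3, against 4.39%. The median step from P10 to P28 was 0.83, against 0.74 over all promoter peaks. With 0.1 in place of 1 added to RPKM the order turned, at 0.90 against 1.02, and 4 of 10 genes lay above the promoter median. Every P28 library exceeded every P10 library at 10 of 10 genes, against 55.1%. Whether the early genes (Nr1d1 and Dbp, with P10 to P28 steps of 0.35 and 0.37) and the late gene (Per3) differ in timing was not tested. The P10 calls also depended on single libraries, as did those of all promoter peaks. There was 1 gene (Dbp) called without P4 replicate 2 (2.97% of promoter peaks), 2 without P4 replicate 1 (2.66%) or without P28 replicate 2 (4.62%), and 6 without P10 replicate 1 (14.9%). Without P10 replicate 2, Arntl, Per3 and Cry1 were called from P10 to P28, 3 of 10 against 1990 of the 9956 promoter peaks (19.99%), and Per3 had a P4 to P10 change of -0.08.

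**Figure D2:**
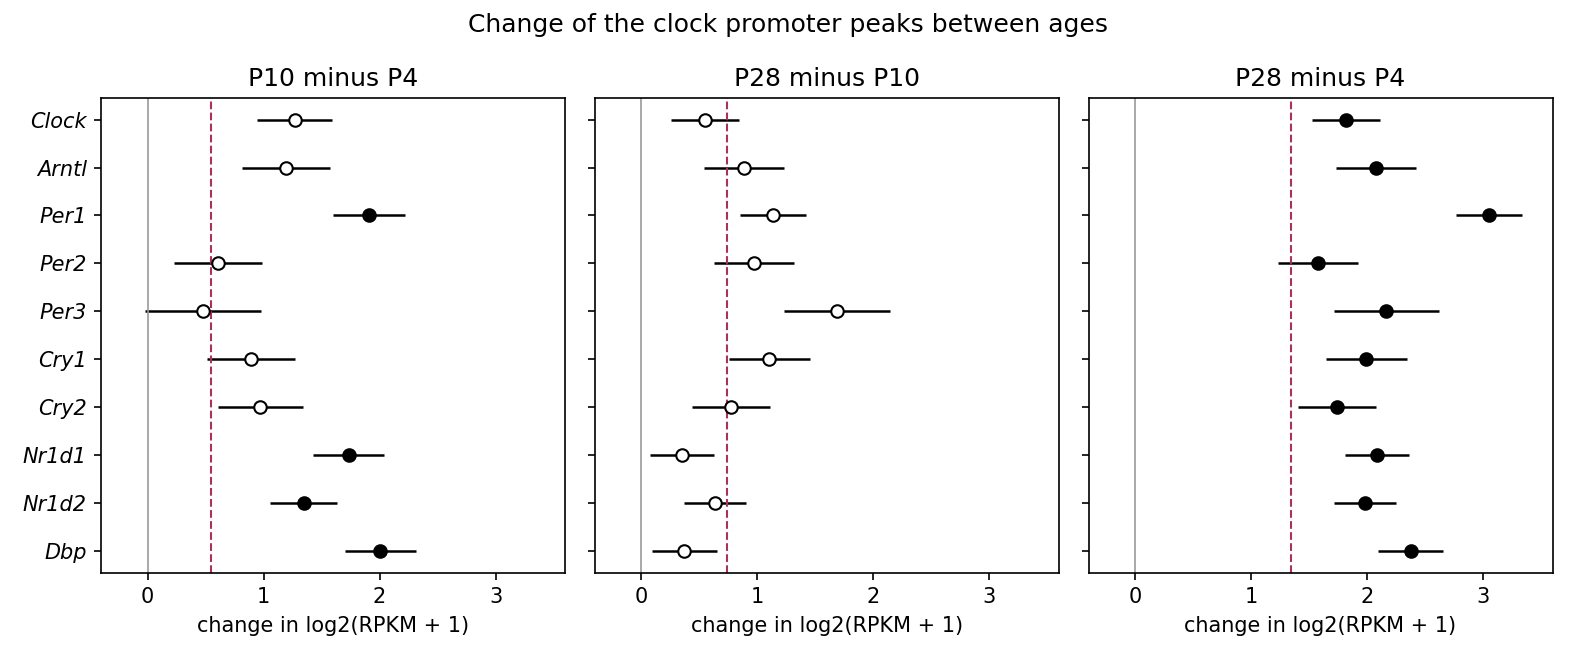
Change in log2(RPKM + 1) at the 10 clock promoter peaks (x axis) for each pair of ages, with the standard error of the fit as bars. Filled points were called at an adjusted p under 0.01 and the dashed line is the median of all promoter peaks. From P4 to P28 all 10 are filled and lie right of the median of 1.35, while from P10 to P28 none is filled.

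Ranks within a library do not depend on how libraries were scaled to each other. Among all promoter peaks, the median clock promoter stood at the 81.3 and 74.1 percentiles at P4, 89.6 and 90.8 at P10, and 92.4, 91.1 and 88.5 at P28. Nr1d2 ranked lowest in P4 replicate 2, still at the 98.0 percentile. Arntl was at 95.4 and 98.0 at P4, 90.5 and 98.0 at P10, and 98.9, 98.8 and 98.7 at P28, so both were already high among promoters at P4. Dbp moved most between P4 and P10, from 51.9 and 49.8 to 90.9 and 89.5, and stood at 89.7, 87.2 and 86.9 at P28. It measured 1.04 and 0.996 times the median promoter at P4 and 3.76 and 3.03 times at P10. Per1 rose from 84.9 and 54.9 at P4 to 99.4, 98.6 and 99.1 at P28, or from 2.10 and 1.11 to 6.01, 5.08 and 5.50 times the median promoter. Per3 was the lowest of the 10 at P28, at 76.2, 74.9 and 65.6, after 13.8 and 53.8 at P4. In rank, Clock, Per2, Cry2 and Nr1d2 overlapped between P4 and P28. For Cry2 the percentiles were 84.2 and 46.6 at P4 and 78.5, 83.8 and 78.5 at P28, so its rank among promoters did not move beyond the spread between libraries.

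**Figure D3:**
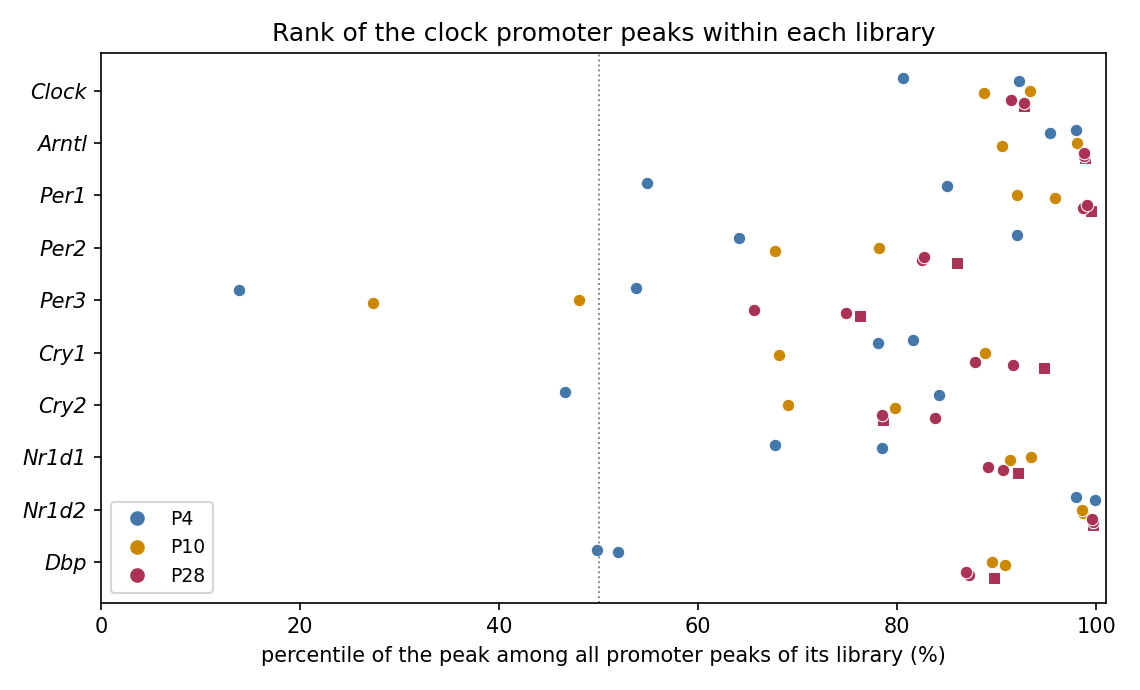
Percentile of each clock promoter peak among the 9956 promoter peaks of its own library (x axis) by gene, 1 point per library, coloured by age, with the batch 2 library as a square. Dbp moves from the middle of the range at P4 to about the 90th percentile at P10 and P28, while Nr1d2 lies between 98.0 and 99.9 and Arntl between 90.5 and 98.9.

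The size of the rise did depend on that scaling. Relative to the normalized library size, reads in peaks were lower in both P4 libraries than in all others. Scaling to total reads in peaks sets this ratio equal. The deposited normalization gave a median change from P4 to P28 of 1.35 over all promoter peaks, with 3321 called higher and 28 lower. Scaling each library to its total reads in peaks gave 0.30, with 726 higher and 326 lower. Median centring gave 0.83 and quantile normalization 0.71. The clock promoters kept a positive change from P4 to P28 at 10 of 10 genes under each, and their median change was 0.68, 1.51 and 0.85 in the same order. Under total scaling 9 of 10 lay above the median of all promoters, under median centring 10 and under quantile normalization 6. The number called was 2, 8 and 2 of 10, against 7.29%, 22.0% and 16.9% of all promoter peaks called higher, so that under quantile normalization the clock share was near that of all promoters. Under total scaling and quantile normalization the 2 called genes were Per1 and Dbp. Per1 changed by 1.77 and 1.96 under those scalings and Dbp by 1.21 and 1.61. Calls from P4 to P10 fell to 0 of 10 under both, where 2.46% and 2.40% of all promoter peaks were called higher, so the 0 says nothing particular about the clock genes. The direction of that step turned at Arntl, Per2 and Cry1 under both, at Per3 and Cry2 under total scaling and at Nr1d2 under quantile normalization.

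**Figure D4:**
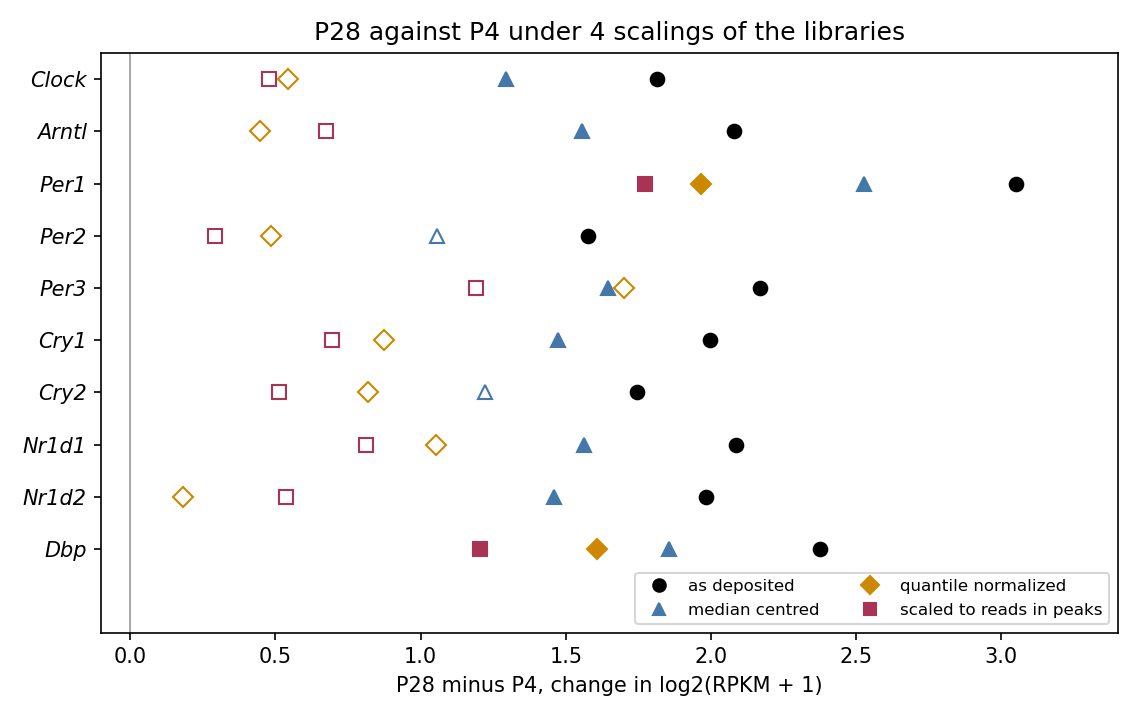
Change in log2(RPKM + 1) from P4 to P28 at each clock promoter peak (x axis) under 4 scalings of the libraries, with filled symbols where limma's adjusted p was under 0.01. All values are above 0, and Per1 and Dbp are the genes filled under all 4.

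The clock genes also carried the mark outside their promoters. Of the 57 peaks, 28 lay in introns (49.1%, against 42.0% of all peaks), 14 in promoters (24.6% against 15.8%), 8 in distal intergenic sequence (14.0% against 32.8%), 6 in exons and 1 in a 3' UTR. Arntl alone held 28 peaks, Cry2 7, Cry1 6 and Per1 4, and Per2 and Per3 had 1 each. Of the 43 peaks outside promoters, 29 were called higher at P28 than at P4 by limma and none lower, against 16.6% of all such peaks. Of these 29, 20 had 3 or fewer reads in each P4 library, and 2 (1 each of Cry1 and Nr1d1) had no read at P4 or P10, so that among the libraries here only those of P28 could bring them into the peak set. Since a peak called at any age entered the set, these counts are given as a description. At P10, 18 of 43 were called higher than at P4, against 11.1%. Peaks of 1 gene share its chromatin and are not independent of each other, and 26 of these 43 belong to Arntl. Many rest on few reads. A fold against an age with 3 or fewer reads in each library is computed against 3 reads per library. It leaves out the counting error of the age with more signal, so it is a cautious value and not a strict lower bound.

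Along Arntl, 18 of the 26 peaks outside promoters were called higher at P28 than at P4, against 16.6% of all peaks outside promoters. At P10, 12 were called higher than at P4, against 11.1%. By mean at P28 the highest of these formed a group of 4 in introns, 38.0 to 42.6 kb into the gene (chr7:113245435-113251339), beyond the downstream start. The first of them (38.0 kb) had 0 and 1.35 RPKM at P4, 12.3 and 17.8 at P10, and 16.0, 21.4 and 24.2 at P28. Its change from P4 to P28 was 3.79 (SE 0.40, limma adjusted p = 0.0002), and its fold against 3 reads per P4 library was 5.76. The peak at 41.5 kb had 1.16 and 2.28 RPKM at P4, 6.89 and 12.04 at P10, and 16.7, 23.9 and 25.9 at P28. None of the peaks outside promoters exceeded the first Arntl promoter in any P28 library. The peak at 47.3 kb had 12.2 and 13.2 RPKM at P10 and 9.73, 12.2 and 14.7 at P28, so these ages overlapped. At the far end, 80.8 kb in, the signal was 1.90 and 2.50 RPKM at P4, 0 in both P10 libraries, and 0, 2.83 and 5.06 at P28, the only clock peak with a negative change from P4 to P28 (-0.16, limma adjusted p = 0.861).

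In the cryptochromes, 1 intron peak of Cry1 and 2 of Cry2 exceeded the promoter peak at P10 and, in most P28 libraries, at P28, but not at P4. The Cry1 intron peak 22.7 kb from the start (chr10:85161702-85162349) had 2.10 and 1.84 RPKM at P4, 13.9 and 17.0 at P10, and 13.0, 25.8 and 26.1 at P28. It exceeded the Cry1 promoter peak in P28 replicates 2 and 3 but not in replicate 1, and in both P10 libraries. Its change from P4 to P10 was 2.47 (SE 0.38, limma adjusted p = 0.00165), where that of the promoter was 0.89 (limma adjusted p = 0.0983). An intron of Cry1 is known for control by ROR and REV-ERB receptors, and a pair of inverted ROR core sites under this peak is shown for that reason (chr10:85161893-85161990, minus strand, core sites in capitals). Over all members, 10 of the 28 intron peaks (35.71%) held such a core site in their central 1000 bases, against 26.93% of 45481 intron peaks. Apart from this Cry1 peak, all of them belong to Arntl, whose peaks are not independent of each other.
Cry1 intron core sites: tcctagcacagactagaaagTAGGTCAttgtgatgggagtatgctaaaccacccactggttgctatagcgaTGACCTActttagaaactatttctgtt

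In Cry2, the intron peak 5.69 kb from the start (chr2:92427768-92428357) had 0.770 and 1.01 RPKM at P4, 18.4 and 14.7 at P10, and 16.5, 23.6 and 30.7 at P28. The one at 2.18 kb (chr2:92431117-92431863) had 0.608 and 0.799 RPKM at P4, 14.5 and 17.9 at P10, and 14.0, 17.1 and 21.3 at P28. Both exceeded the Cry2 promoter in each P10 and P28 library and lay below it in each P4 library. Their changes from P4 to P10 were 3.21 (SE 0.35, limma adjusted p = 0.000558) and 3.33 (SE 0.33, limma adjusted p = 0.000427), and the P10 to P28 steps were 0.46 and 0.09. Since both had 3 or fewer reads in each P4 library, their folds were computed against 3 reads per library. These were 6.19 and 7.69 to P10, and 8.84 and 8.28 to P28. An exon peak of Cry2 at 8.70 kb (chr2:92423277-92425347) had 1.54 and 3.46 RPKM at P4, 12.2 and 14.5 at P10, and 11.8, 14.4 and 15.1 at P28. It exceeded the Cry2 promoter in each P10 and P28 library and in P4 replicate 2, but not in P4 replicate 1. This peak also overlaps the annotated span of D930015M05Rik.

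Upstream of Nr1d1, 2 peaks stood side by side. The nearer, 6.28 kb before the start (chr11:98781612-98782011), had 0 RPKM in all 4 libraries of P4 and P10 and 7.87, 12.6 and 15.5 at P28. These values are a description, since among the libraries here only those of P28 could have brought this peak into the set. The farther, 6.85 kb before the start (chr11:98782184-98783877), had 1.07 and 0.705 RPKM at P4, 9.59 and 6.98 at P10, and 9.60, 13.9 and 16.2 at P28, a rise of 14.9 times in mean RPKM (change 2.89, SE 0.34, limma adjusted p = 0.000295). Clock, Nr1d2 and Per1 had no called peak outside their promoters.

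**Figure D5:**
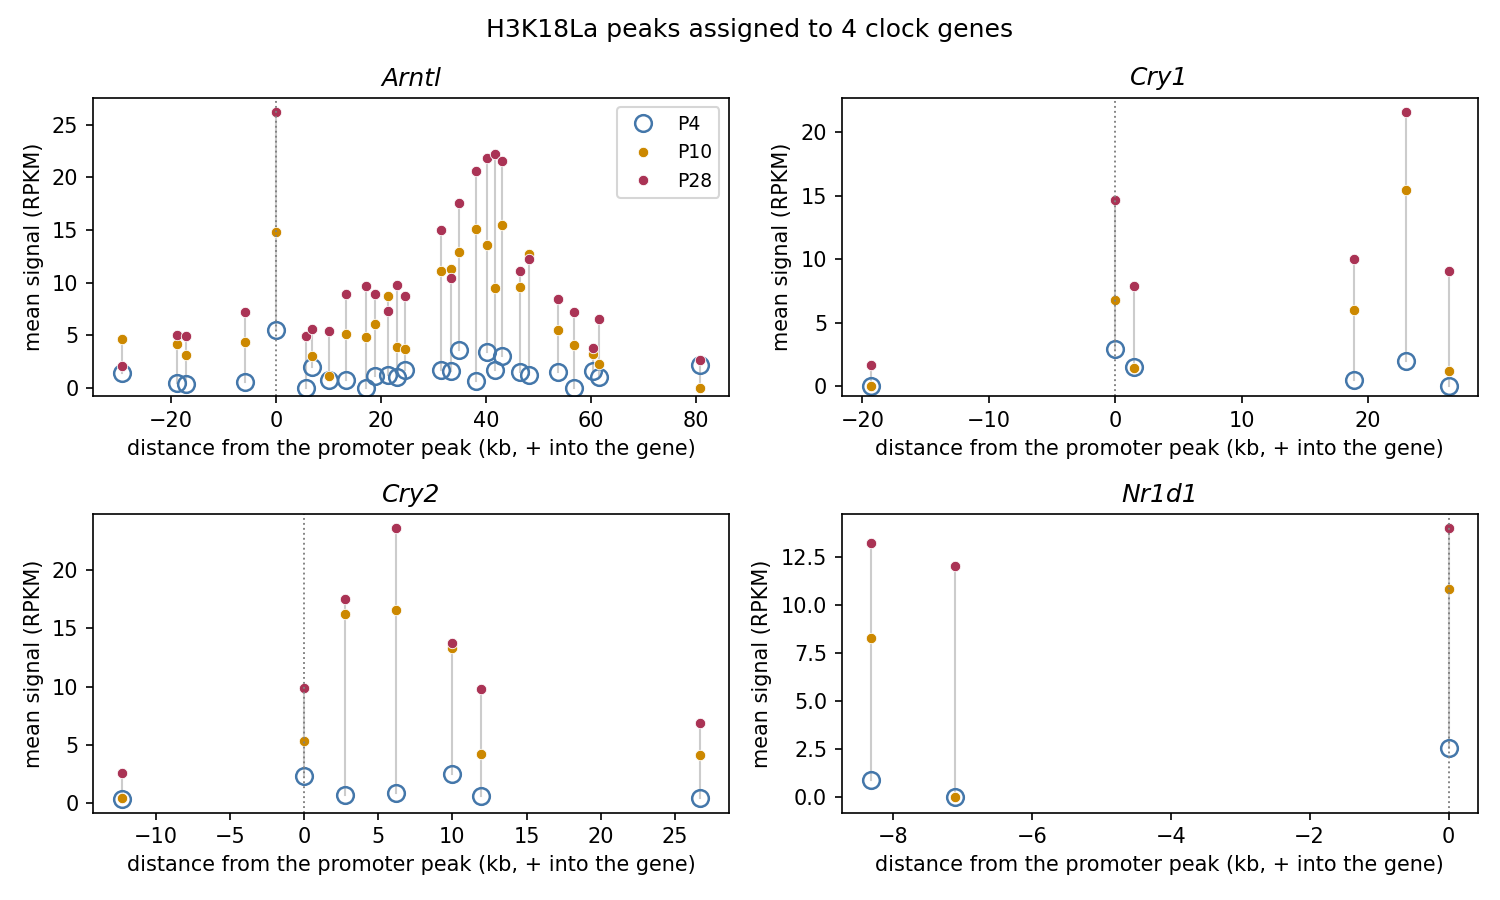
Mean RPKM by age (y axis) of every peak assigned to Arntl, Cry1, Cry2 and Nr1d1 against the distance of its centre from the promoter peak in kb (x axis). Open circles are P4, and grey lines span the ages of a peak. The highest intron peak of Cry1 and that of Cry2 exceed the promoter in mean at P10 and P28, and at P28 Arntl has a group of high peaks about 40 kb in.

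Other genes of the clock were taken from a list of 18, each with a promoter peak. At P28, 10 of the 18 were called higher than at P4 by limma and none lower, against the 33.4% of promoter peaks given above, and at P10 5 of 18 were called higher (11.6% of promoter peaks). Their median change from P4 to P28 was 1.81, between that of the 10 clock genes and that of all promoter peaks. Among loop factors, 5 of 10 were called. Bhlhe41, which encodes the E-box repressor DEC2, had 4.21 and 3.46 RPKM at P4, 39.7 and 34.7 at P10, and 22.5, 26.5 and 30.8 at P28, and was higher in both P10 libraries than in any P28 library (P28 against P4 change 2.51, limma adjusted p = 0.00018). Rora, the activator at ROR elements, changed by 2.60, Ciart, a repressor of CLOCK and BMAL1, by 2.34, and Tef and Nfil3, an activator and a repressor at D-boxes, by 2.25 and 2.01. The Ciart level at P4 rests on 3 reads over both libraries. Those not called included Npas2 (0.49), Bhlhe40 (0.83), Hlf (1.74) and Rorb (1.81).

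Of the kinases and ubiquitin ligase parts that act on PER and CRY proteins, 4 of 6 were called (33.4% of promoter peaks), among them Btrc (2.43), Fbxw11 (1.82) and Fbxl21 (1.79). Csnk1d (1.23) and Csnk1e (1.27), the casein kinases that phosphorylate PER, were not. The largest change on the list was at Usp2, which encodes a ubiquitin protease. It had 0.403 and 0.529 RPKM at P4, 8.01 and 8.39 at P10, and 14.7, 15.5 and 17.8 at P28, with no overlap between ages and a change of 3.53 from P4 to P28 (SE 0.29, limma adjusted p = 0.000114). Usp2 had 3 or fewer reads in each P4 library, and its fold against 3 reads per library was 11.4. Timeless changed by 1.48 and was not called. The count of 10 was 4 without P4 replicate 1 (9.33% of promoter peaks), 5 without P28 replicate 2 (13.0%) and 6 without P4 replicate 2 (10.7%) or without P28 replicate 3 (12.8%). Under total scaling it was 3 of 18 (7.29%) and under quantile normalization 4 of 18, near the 16.9% of all promoter peaks.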

How the data were processed

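H3K18La CUT&Tag was measured in 7 libraries, grouped by age from the sample labels. The authors mapped reads with nf-core/cutandrun to GRCm38, kept MACS peaks with a -log10 q-value over 6 in at least 2 replicates, merged them over the ages, annotated them with ChIPseeker 1.34.1 and normalized on large genomic windows. The authors deposited the signal per peak and library as RPKM. They also deposited a table of their own comparisons made with edgeR 3.40.2 (fold changes, p-values), which was not used. How many animals a library holds is not given in the sources used here, and p-values measure only the spread between these libraries.

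RPKM times peak width gave whole reads for 100% of values in each library (within 0.01 of a whole number), so depth is known, and 3 reads are the limit that a count of 0 allows. Reads carry no molecular identifiers, so these floors cover counting error only. For a peak of median width (757 bases), 3 reads are 1.80 and 2.36 RPKM at P4, 7.15 and 3.12 at P10, and 1.04, 0.244 and 0.684 at P28.

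Changes are differences in log2(RPKM + 1), which understate those of low peaks. They were tested with limma 3.58.1 (R 4.3.3, variance trend) in 1 fit of all 7 libraries and 108253 peaks without covariates. P-values were Benjamini-Hochberg adjusted over all peaks, and peaks were called at an adjusted p under 0.01. The same fit was run on simulated counts without a shift of all peaks between ages, so that run says nothing about such a shift. Motifs and figures used Python 3.11.15 with pandas 2.3.3, numpy 2.4.6 and matplotlib 3.10.9. All 10 clock genes are named whatever their result. A gene is represented by the promoter peak (from ChIPseeker's annotation) with the smallest distance to a start, ties going to the wider peak. The other 18 clock genes and the 6 retinal rhythm genes are counted in full and named where called and at the largest change in each direction, and those not called were added, except that 2 genes of the list are counted but not reported here by name. Members and lists were chosen with earlier results of these data known. Alternatives covered the pseudocount (0.1), a minimum of 10 reads over all libraries, 3 other scalings, a replicate block, voom on recovered reads, a threshold of 0.05, each library left out in turn, the mean over a gene's promoter peaks and, chosen after seeing the data, another Per1 promoter peak.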

Additional observations from a re-analysis of the deposited data

How the results depend on the processing

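All 10 clock promoter peaks kept a positive change from P4 to P28 under every alternative tried, and Per1 and Dbp were called under each. The number called, 10 as deposited, was 2 when scaled to total reads in peaks and 2 under quantile normalization, and ran from 4 to 10 with 1 library left out. From P4 to P10 (4 called) it was 0 and 0 under the same scalings and 1 to 6 with 1 library left out. From P10 to P28 (0 called) it was 1 with voom, 2 at an adjusted p under 0.05 and 0 to 3 with 1 library left out, the 3 without P10 replicate 2. Across the ages (9 called) it was 5 with a pseudocount of 0.1, 1 when scaled to total reads, 2 under quantile normalization and 1 to 10 with 1 library left out, the 1 without either P4 library. Of all 57 clock peaks, the 41 called from P4 to P28 became 19 when scaled to total reads and 18 to 51 with 1 library left out. For the 18 other clock genes, the 10 became 3, 4 under quantile normalization and 4 to 15. Of all 108253 peaks, 20488 were called higher at P28 than at P4 as deposited and 7759 when scaled to total reads. Without 1 P28 library the count over the 57 clock peaks was 25 to 33, and that over all peaks 9010 to 12493. For the test across the ages, 29.3% of all promoter peaks were called as deposited. That share is not given under the alternatives, so these falls are not read as particular to the clock genes. The cause of these shifts was not tested. From P4 to P10 the direction reversed at Arntl (-0.022 scaled to total reads, -0.31 under quantile normalization), Per2 (-0.49, -0.27), Cry1 (-0.23, -0.0083), Per3 (-0.32 scaled, and from -0.082, without P10 replicate 2, to 1.04 with 1 library left out), Cry2 (-0.065 scaled) and Nr1d2 (-0.46 under quantile normalization). Deviations of same-numbered libraries had correlations up to 0.047 in size. At a median of 1 or 2 reads per peak in the P4 and P10 libraries, counting error would hide a shared deviation. Whether the numbers pair the libraries therefore cannot be told from these correlations. With the replicate block, 7 clock promoters were called from P4 to P28 (not Per2, Per3 or Cry2), against 18.6% of all promoter peaks. From P4 to P10 it called 4, against 9.61%. Depth limits P10 replicate 1 most, with 199970 reads in peaks.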

Other observations

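Of 6 genes for rhythmic functions of the retina, 4 promoter peaks were called higher at P28 than at P4 by limma with Benjamini-Hochberg adjustment, against 33.4% of all promoter peaks. Drd4, a dopamine receptor gene of photoreceptors known for its daily rhythm, had 1.17 and 0.659 RPKM at P4, 8.64 and 10.7 at P10, and 12.6, 15.8 and 14.0 at P28, a change of 2.99 (limma adjusted p = 0.000174). Adcy1, an adenylyl cyclase gene, had 1.64 and 4.06 RPKM at P4, 14.4 and 20.8 at P10, and 15.8, 17.9 and 18.6 at P28, a change of 2.33 (limma adjusted p = 0.000726). Opn4, which encodes the ganglion cell photopigment melanopsin, had 1.48 and 1.94 RPKM at P4, 9.78 and 11.96 at P10, and 9.10, 13.1 and 11.0 at P28, a change of 2.15 (limma adjusted p = 0.000671). These 3 were also called from P4 to P10 (11.6% of promoter peaks), while Aanat, the gene of the penultimate enzyme of melatonin synthesis, was not. The Opn4 level at P4 rests on 6 reads over both libraries.

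Aanat had 1.16 and 0 RPKM at P4, 0 and 2.01 at P10, and 8.02, 5.79 and 6.16 at P28, a change of 2.37 from P4 to P28 (limma adjusted p = 0.00856). Only 2 reads over both P4 libraries and 2 over both P10 libraries stand behind its early levels. The melatonin receptor genes went the other way in value, without passing the test. Mtnr1b had 2.59 and 3.97 RPKM at P4, 5.15 and 0.749 at P10, and 0.748, 0.584 and 0.821 at P28, a change of -1.30 (limma adjusted p = 0.086). Mtnr1a had 8.16 and 3.57 RPKM at P4, 0 and 2.36 at P10, and 0.785, 3.31 and 4.65 at P28, where the change was -0.88 (limma adjusted p = 0.299). These peaks rest on few reads at P4, 8 for Mtnr1a and 13 for Mtnr1b, and neither value was shown to differ between ages.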
